A study of Mus musculus with 4 samples.

Results

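The 10 genes described here encode co-receptors and accessory proteins of the Toll-like receptors (TLRs), the adaptors that carry the signal of these receptors into the cell, and kinases of the interleukin-1 receptor-associated (IRAK) family. They were chosen by name (Cd14, Ly86, Cd180, Ly96, Unc93b1, Myd88, Tirap, Irak2, Irak3 and Irak4), and all 10 were found among the 37681 Ensembl gene IDs of the count tables. Messenger RNA came from wild-type C57BL/6 mouse bone marrow cultures grown with L929 supernatant, which supplies a macrophage growth factor. The groups were cells with shRNA targeting lncRNA-COX2 given 100 nM Pam3Cys4 for 5 h, cells with this shRNA left unstimulated, cells without shRNA given 100 nM Pam3Cys4 for 5 h, and cells without shRNA left unstimulated, with 1 library in each group. Where no shRNA was used, the titles hold the letters EV, which the labels leave unexplained, and whether those cells received a control construct is not stated. The level of lncRNA-COX2 was not analysed here. No difference below has a replicate check, and every interval given with a ratio covers counting error only.

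Pam3Cys4 is a synthetic lipopeptide that is sensed at the cell surface by TLR2 together with TLR1. CD14 hands such ligands to the receptors, and after ligand binding the adaptor TIRAP recruits MyD88, which gathers IRAK4, IRAK1 and IRAK2 into one complex and leads on to TRAF6 and NF-kB. IRAK3, also called IRAK-M, lacks an active kinase and is known in macrophages as a restraint on this signal. Further arms use related proteins: MD-2, the product of Ly96, binds lipopolysaccharide for TLR4, while MD-1, the product of Ly86, pairs with CD180 (RP105), a TLR-like molecule that restrains TLR4 in macrophages.

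The libraries held 47385277 to 65826838 gene reads each. The 8 macrophage markers listed for this report (among them Adgre1, Csf1r and Cd68) all had at least 10 counts in every library and summed to 5869.7 to 7771.4 CPM (read counts scaled to a common library size and corrected for composition). Marker lists for neutrophils, B cells, T and NK cells, dendritic cells, mast cells, stromal cells and erythroid cells summed to at most 2.23 CPM, and Ebf1, Cd3e, Ly6g and Kit were at 0 in each library. Y-linked genes separated the shRNA libraries from the others. Ddx3y had 1116 and 921 counts with shRNA against 4 and 3 without it, Kdm5d had 665 and 730 against 1 and 0, and Uty had 334 and 320 against 0 and 1 (Pam3Cys4 first, unstimulated second in each pair), whereas Eif2s3y had 0 and 0 counts with shRNA and 6 and 3 without it. An effect of the shRNA and a difference in the source of the cells therefore cannot be told apart in any comparison of shRNA with no shRNA below. In bulk RNA, fewer cells with a transcript and less of it per cell cannot be told apart either.

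Among the 10 genes, Irak3, Cd14 and Irak2 were the ones that Pam3Cys4 libraries held at 2-fold or more of the unstimulated level, in cells with shRNA and in cells without it. Ly86 was nearly absent with shRNA, and Myd88 and Cd180 passed 2-fold upward with shRNA in the stimulated cells. A gene was counted as 2-fold apart when the ratio of its scaled counts reached 2 or 0.5 and the 95% interval excluded 1, where the higher of both libraries held at least 5 CPM. After Pam3Cys4, 3 of 8 measured members were higher and 0 lower with shRNA present, where 9.83% of 9601 genes were 2-fold apart, 6.3% higher and 3.53% lower (494 and 466 genes with library totals as the only scaling). In cells without shRNA 3 of 9 were higher and 0 lower, where 13.6% of 9555 genes were 2-fold apart, 7.07% higher and 6.51% lower (541 and 898 genes with library totals alone). For shRNA over no shRNA after Pam3Cys4, 2 of 9 were higher and 1 lower, where 14.6% of 9702 genes were 2-fold apart, 9.0% higher and 5.58% lower. In unstimulated cells 0 of 9 were higher and 1 lower, where 11.8% of 9651 genes were 2-fold apart, 7.0% higher and 4.82% lower. The median log2 ratio of the measured members was 0.71 and 0.25 for Pam3Cys4 with and without shRNA (all genes 0.02 and 0.00), and 0.34 and 0.22 for shRNA after Pam3Cys4 and unstimulated (all genes 0.05 and 0.02). With so few members these shares are a description. Ly96, at 0.946 to 1.66 CPM, stayed under the filter in every comparison, and Ly86 did so in the stimulation of cells with shRNA. The 4 comparisons share libraries pairwise, so that, for example, the unstimulated library without shRNA is the denominator of both its own stimulation ratio and the shRNA ratio in unstimulated cells.

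**Figure D1:**
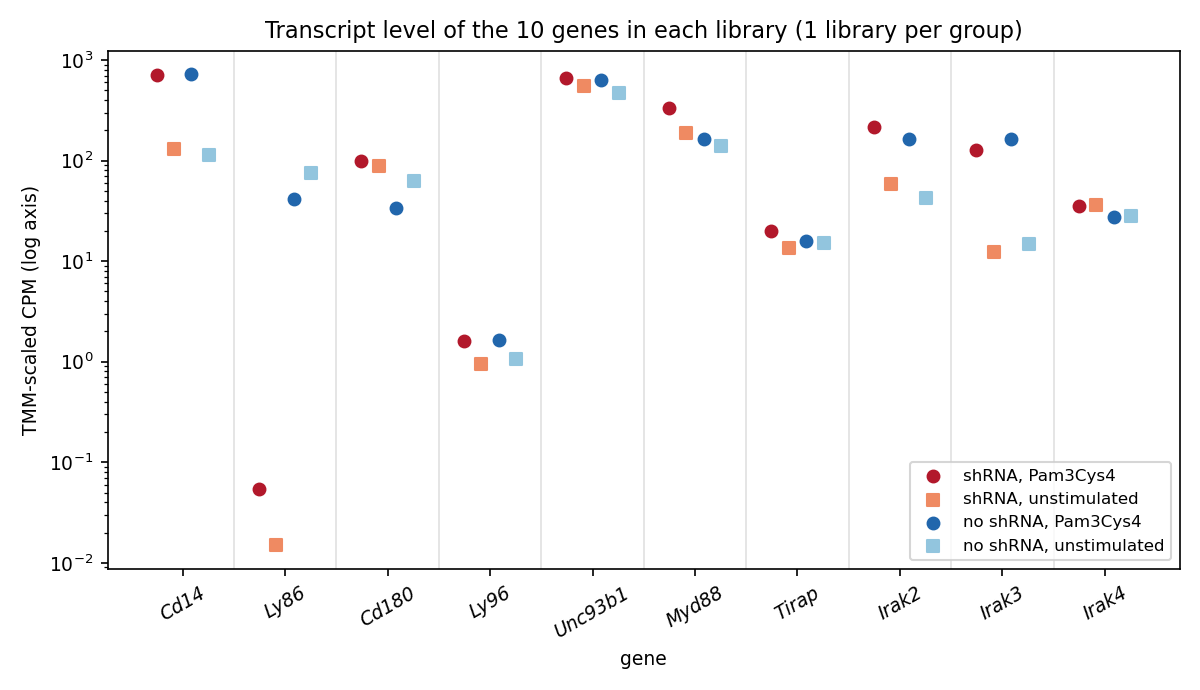
Level of each of the 10 genes in each library, in CPM scaled by TMM on a log axis, with 1 point per library (circles, Pam3Cys4; squares, unstimulated; red and orange, shRNA; blue, no shRNA). Cd14, Irak2 and Irak3 separate by stimulation, and Ly86 stands at 0.0547 and 0.015 CPM with shRNA against 41.2 and 75.2 CPM without it.

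Tests across all genes came from an additive edgeR quasi-likelihood model with one term for stimulation and one for shRNA. It takes both states of the other factor as repeats, has 1 residual degree of freedom, and leaves the variation among independent cultures outside its p-values. It tested 9559 genes, including every member except Ly96. With Pam3Cys4, 3 of 9 members rose and 0 fell (Cd14, Irak2 and Irak3), where 22.8% of all genes passed, 11.9% rising and 10.9% falling. With shRNA, 1 of 9 rose (Myd88) and 1 fell (Ly86), where 20.9% of all genes passed, 12.2% rising and 8.69% falling. The median log2 effect over the 9 members was 0.34 for Pam3Cys4 and 0.14 for shRNA, and over all tested genes 0.00 and 0.04.

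Cd14, which encodes the membrane-anchored protein that hands lipopolysaccharide and lipopeptides to TLR4 and TLR2, had the highest per-length level of the 10 genes after stimulation. Its counts were 39076 with shRNA and 36360 without shRNA after Pam3Cys4, and 8739 with shRNA and 5946 without shRNA in unstimulated cells. On the CPM scale this was 712 and 720 after Pam3Cys4, against 131 and 114 in unstimulated cells, in the same order. Both stimulated libraries were thus high and both unstimulated libraries low, whatever the shRNA state. The ratio of Pam3Cys4 to unstimulated cells was 5.43 with shRNA (95% counting interval 5.30 to 5.56) and 6.31 without it (6.14 to 6.49), and Cd14 rose in the additive test (log2 2.55, standard error 0.13, adjusted p 0.00239). For shRNA over no shRNA the ratio was 0.989 after Pam3Cys4 (0.975 to 1.00) and 1.15 in unstimulated cells (1.11 to 1.19), with an adjusted p of 0.626 for the shared effect (log2 0.09, standard error 0.12). In CPM per kilobase of exon (RPKM, computed with exon lengths of GENCODE vM21), Cd14 stood at 411 with shRNA and 416 without shRNA after Pam3Cys4, and at 75.7 and 65.9 in unstimulated cells. Its per-length level was 177 times that of Tlr4 with shRNA and 96.3 times without shRNA after Pam3Cys4, and 19.0 and 21.2 times in unstimulated cells. Against Tlr2, the receptor of the ligand used, the same quotient was 3.67 with shRNA and 6.35 without shRNA after Pam3Cys4, and 2.84 and 2.83 in unstimulated cells.

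Ly86, which encodes MD-1, the secreted partner that CD180 needs to reach the cell surface, was read in quantity only in the libraries without shRNA. It had 3 counts with shRNA and 2080 without shRNA after Pam3Cys4, and 1 count with shRNA and 3920 without shRNA in unstimulated cells. The log2 ratio of shRNA to no shRNA was -9.56 after Pam3Cys4 (-11.84 to -8.01) and -12.29 in unstimulated cells (-17.59 to -9.81), and Ly86 fell with shRNA in the additive test (log2 -10.80, standard error 0.39, adjusted p 0.000465). Within the cells without shRNA the Pam3Cys4 level was lower than the unstimulated level, with a ratio of 0.548 (0.519 to 0.578), or 0.484 with library totals alone, which is past 2-fold. The shared Pam3Cys4 effect did not pass the test (log2 -0.78, adjusted p 0.105), and it did so with library totals alone (adjusted p 0.0464) but had a log2 effect of 0.00 under DESeq2. The count of 1 and 3 reads with shRNA leaves its stimulation ratio there undetermined (3.64, interval 0.292 to 191).

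Cd180, which encodes the TLR-like surface molecule RP105, did not share the loss of its partner. Cd180 had 98.6 CPM with shRNA and 34.1 CPM without shRNA after Pam3Cys4, and 88.4 CPM with shRNA and 62.6 CPM without shRNA in unstimulated cells. Both libraries with shRNA were above both libraries without it. The ratio of shRNA to no shRNA was 2.89 after Pam3Cys4 (2.74 to 3.06) and 1.41 in unstimulated cells (1.35 to 1.47), while the additive test gave a log2 effect of 1.01 (standard error 0.27, adjusted p 0.0621), which passed under DESeq2 (adjusted p 0.0012). Pam3Cys4 over unstimulated was 1.12 with shRNA (1.08 to 1.16) and 0.545 without it (0.514 to 0.578), or 1.02 and 0.481 with library totals alone. The fold with shRNA over the fold without it was 2.05 (1.91 to 2.19), and Cd180 was the 1 member of 8 measured for this quotient that was at least 2-fold apart, where 3.58% of 9857 genes were so, 1.94% upward and 1.64% downward. Without shRNA, Ly86 and Cd180 had almost the same stimulation ratio, and the per-length level of Ly86 was 1.5 times that of Cd180 after Pam3Cys4 and 1.49 times in unstimulated cells. With shRNA that quotient was 0.000688 after Pam3Cys4 and 0.000211 in unstimulated cells.

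Ly86 lies on chromosome 13, and the nearest protein-coding gene on one side, F13a1, which encodes the A chain of coagulation factor XIII and is read in many macrophages, was also low with shRNA. F13a1 had 5 counts with shRNA and 484 without shRNA after Pam3Cys4, and 32 with shRNA and 482 without shRNA in unstimulated cells. Its ratio of shRNA to no shRNA was 0.00951 after Pam3Cys4 (0.00307 to 0.0223) and 0.0519 in unstimulated cells (0.0351 to 0.0743). On the other side, the transcription factor gene Rreb1 had ratios of 1.49 and 1.36 and Ssr1, which encodes a protein of the endoplasmic reticulum translocon, had 0.722 and 0.910. Nrn1, the second gene on the side of F13a1, was read at 0.765 to 1.59 CPM only. Cd180 is on chromosome 13 as well, and was not low with shRNA. The 2 nearest coding genes on each side of Cd14 were Slc35a4, Tmco6 and Ndufa2, with Pam3Cys4 ratios of 0.862 to 1.28, and E230025N22Rik, with 5 to 9 counts only. Helb, Tmbim4 and Llph beside Irak3 had 0.58 to 1.56, while Grip1, also beside Irak3, had 1 to 11 counts only. The neighbours were taken from GENCODE vM21 for gene order alone, since its build (GRCm38) is not that of the counts (NCBIM37).

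**Figure D2:**
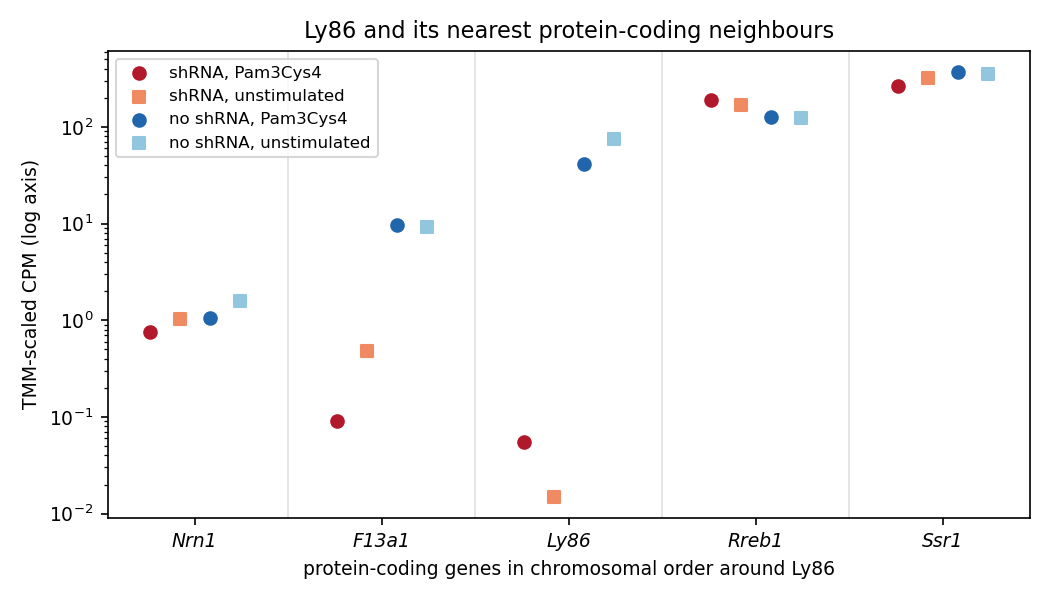
Level in CPM on a log axis for Ly86 and the 2 nearest protein-coding genes on each side, in chromosomal order, with 1 point per library. F13a1 (5 and 32 counts) and Ly86 (3 and 1 counts) are low in both libraries with shRNA, while Nrn1, Rreb1 and Ssr1 show no such gap.

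The windows before the starts of these genes are shown because Ly86 and Cd180 encode partners with like Pam3Cys4 ratios without shRNA and opposite shRNA ratios. They are the RefSeq promoter windows of the GRCm38.p6 table, 250 bases before to 50 bases after the start, written 5' to 3' on the strand of the gene. A search on both strands covered 3 motifs: the NF-kappa B site, the interferon-stimulated response element (ISRE, written GAAA, any 2 bases, GAAA) and the AP-1 site (TGANTCA), which may overlap one another. Matches would be in capitals, and neither window holds one.
Ly86, chr13:37345095-37345394, plus strand: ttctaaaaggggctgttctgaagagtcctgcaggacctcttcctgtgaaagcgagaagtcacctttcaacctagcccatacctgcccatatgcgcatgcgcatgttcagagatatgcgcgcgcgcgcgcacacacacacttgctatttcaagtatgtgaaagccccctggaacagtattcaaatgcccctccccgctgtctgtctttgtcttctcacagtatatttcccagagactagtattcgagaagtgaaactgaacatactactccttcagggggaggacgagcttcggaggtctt
Cd180, chr13:102693308-102693607, plus strand: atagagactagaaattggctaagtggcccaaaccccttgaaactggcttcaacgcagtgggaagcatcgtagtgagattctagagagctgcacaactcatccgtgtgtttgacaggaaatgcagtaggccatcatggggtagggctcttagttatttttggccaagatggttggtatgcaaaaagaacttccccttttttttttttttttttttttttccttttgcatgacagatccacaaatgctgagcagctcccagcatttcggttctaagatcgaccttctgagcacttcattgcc
Of 32841 windows of this length in the table, 8.46% hold a match to the NF-kappa B site, 3.44% to the ISRE and 7.81% to the AP-1 site. The absence of a match says only that these letters are not in these windows. Windows were used for 7 of the 10 genes, with Irak3, Tirap and Cd180 having more than one start. The remaining members were not searched, so whether their windows hold a match was not tested.

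Ly96 and Unc93b1 represent the remaining accessory proteins. Ly96 encodes MD-2, which holds lipopolysaccharide at TLR4, and was barely read, with 89 counts with shRNA and 84 without shRNA after Pam3Cys4, and 63 with shRNA and 56 without shRNA in unstimulated cells. Its Pam3Cys4 ratio was 1.71 with shRNA (1.23 to 2.41) and 1.55 without it (1.09 to 2.21). Both stimulated libraries were thus above both unstimulated ones, at counts too low to place the ratio more closely. Its shRNA ratio was 0.975 after Pam3Cys4 (0.715 to 1.33) and 0.88 in unstimulated cells (0.604 to 1.28), within counting error of 1. Per length, Ly96 stood at 0.685 times the level of Tlr4 with shRNA and 0.377 times without shRNA after Pam3Cys4, and at 0.232 and 0.338 times in unstimulated cells.

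Unc93b1 encodes the escort that takes nucleic acid-sensing TLRs from the endoplasmic reticulum to endosomes, and was among the highest of the 10 genes in each library. It had 663 CPM with shRNA and 636 CPM without shRNA after Pam3Cys4, and 553 CPM with shRNA and 474 CPM without shRNA in unstimulated cells. The 4 libraries lay close together, with Pam3Cys4 ratios of 1.20 with shRNA (1.18 to 1.22) and 1.34 without it (1.32 to 1.37). The shRNA ratio was 1.04 after Pam3Cys4, or 0.991 with library totals alone, and 1.17 in unstimulated cells. Neither effect passed the additive test (Pam3Cys4 log2 0.34, adjusted p 0.10; shRNA log2 0.14, adjusted p 0.442). Among receptors that use this escort, Tlr3 was 21.7 times as high with shRNA as without it after Pam3Cys4 (18.3 to 25.8) and 8.38 times in unstimulated cells (6.69 to 10.6). The same ratios were 9.12 and 12.0 for Tlr8 and 2.58 and 1.68 for Tlr9. Their shared shRNA effect passed the additive test (adjusted p 0.0011 and 0.0242), as did that of Tlr3 (adjusted p 0.00414). For Tlr7 the ratios were 2.02 and 1.29 and for Tlr13 1.95 and 1.29, with adjusted p-values of 0.0695 and 0.0674 for their shared shRNA effect, which did not pass.

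Myd88, the adaptor used by nearly all TLRs and by the interleukin-1 receptor family, was highest in the stimulated library with shRNA. Its level was 334 CPM with shRNA and 163 CPM without shRNA after Pam3Cys4, and 187 CPM with shRNA and 138 CPM without shRNA in unstimulated cells. Both libraries with shRNA lay above both without it. The ratio of shRNA to no shRNA was 2.05 after Pam3Cys4 (1.99 to 2.10), or 1.95 and under 2-fold with library totals alone, and 1.36 in unstimulated cells (1.32 to 1.40). Myd88 rose with shRNA in the additive test (log2 0.74, standard error 0.18, adjusted p 0.0478), close to the threshold of 0.05. The Pam3Cys4 ratio was 1.79 with shRNA (1.75 to 1.83) and 1.19 without it (1.15 to 1.22), a quotient of 1.51 (1.45 to 1.57), and the shared Pam3Cys4 effect did not pass (log2 0.54, adjusted p 0.0862), though it did under DESeq2 (adjusted p 0.0349). Of the exon bases of Myd88, 11.3% overlap Acaa1a on the other strand, and the strand setting of the counting is not given in the sources used here. Interferon-stimulated genes were high in the same libraries, and their part in the level of Myd88 was not tested. Of 10 listed for comparison (Isg15, Irf7, Oas1a and others), all 10 passed 2-fold upward with shRNA in stimulated cells (median log2 ratio 4.22). There 9.0% of 9702 genes were higher. In unstimulated cells all 9 measured were so (median 5.53), where 7.0% of 9651 genes were higher. The list was chosen with earlier results of these data known.

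The Myd88 window is shown because Myd88 was the only member that rose with shRNA in the additive test. It was also the only one of the 7 members with a window used here whose letters match 1 of the 3 motifs. Of all windows in the table, 8.46% match the NF-kappa B site, 3.44% the ISRE and 7.81% the AP-1 site. With so few members this count is a description. Cd180, whose windows hold no match, had larger shRNA ratios than Myd88, 2.89 against 2.05 after Pam3Cys4 and 1.41 against 1.36 in unstimulated cells. The capitals mark a match to the ISRE on the strand of the gene, beginning 40 bases before the start.
Myd88, chr9:119339969-119340268, minus strand: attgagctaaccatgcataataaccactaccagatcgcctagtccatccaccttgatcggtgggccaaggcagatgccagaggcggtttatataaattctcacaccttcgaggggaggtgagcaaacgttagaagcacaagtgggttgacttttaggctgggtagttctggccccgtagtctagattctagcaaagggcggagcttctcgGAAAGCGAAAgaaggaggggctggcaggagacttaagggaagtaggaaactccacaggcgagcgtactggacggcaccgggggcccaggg
A match is a description of the letters and not evidence of a bound site.

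Tirap, which encodes the bridging adaptor that brings MyD88 to TLR2 and TLR4, was read at 20.0 CPM with shRNA and 15.8 CPM without shRNA after Pam3Cys4, and at 13.5 CPM with shRNA and 15.3 CPM without shRNA in unstimulated cells. The stimulated library with shRNA was the highest and the unstimulated library with shRNA the lowest. Its Pam3Cys4 ratio was 1.49 with shRNA (1.36 to 1.62) and 1.03 without it (0.934 to 1.14), and neither effect passed the additive test (adjusted p 0.268 for Pam3Cys4 and 0.774 for shRNA). The per-length level of Myd88 was 31.9 times that of Tirap with shRNA and 19.8 times without shRNA after Pam3Cys4, and 26.5 and 17.2 times in unstimulated cells.

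Of the IRAK kinases, Irak3 had the largest stimulation ratio of the 10 genes. Irak3 encodes IRAK-M, the restraining member without kinase activity, and had 7004 counts with shRNA and 8332 without shRNA after Pam3Cys4, and 819 with shRNA and 765 without shRNA in unstimulated cells. In CPM these were 128 and 165 after Pam3Cys4, against 12.3 and 14.7 in unstimulated cells. Both stimulated libraries were high, and in each stimulation state the library with shRNA was the lower one. Pam3Cys4 over unstimulated was 10.4 with shRNA (9.65 to 11.2) and 11.2 without it (10.4 to 12.1), and the quotient of both, 0.924 (0.833 to 1.02), had an interval that included 1. Irak3 rose with Pam3Cys4 in the additive test (log2 3.43, standard error 0.13, adjusted p 0.00155), and 0.687% of genes with shRNA and 0.858% without it had a larger Pam3Cys4 ratio. The shRNA ratio was 0.774 after Pam3Cys4 (0.749 to 0.799) and 0.838 in unstimulated cells (0.758 to 0.926), with a log2 effect of -0.32 that did not pass (adjusted p 0.135).

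Irak2, which encodes a kinase family member that sustains signalling after the first wave, rose with stimulation as Irak3 did. Its shRNA ratios lay above 1 and those of Irak3 below 1, a difference that was not tested. Irak2 had 214 CPM with shRNA and 163 CPM without shRNA after Pam3Cys4, and 58.1 CPM with shRNA and 42.2 CPM without shRNA in unstimulated cells. The ratio of Pam3Cys4 to unstimulated cells was 3.69 with shRNA (3.55 to 3.82) and 3.87 without it (3.69 to 4.05), and Irak2 rose in the additive test (log2 1.92, standard error 0.12, adjusted p 0.00361). In each stimulation state the library with shRNA was the higher one, with ratios of 1.31 after Pam3Cys4 (1.28 to 1.35) and 1.38 in unstimulated cells (1.31 to 1.45), and the shared effect did not pass (log2 0.43, adjusted p 0.0596).

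Irak4, the kinase that starts the cascade and acts on IRAK1, was flat with stimulation under TMM scaling. Irak4 had 35.1 CPM with shRNA and 27.7 CPM without shRNA after Pam3Cys4, and 36.3 CPM with shRNA and 27.9 CPM without shRNA in unstimulated cells. Its Pam3Cys4 ratio was 0.966 with shRNA (0.910 to 1.03) and 0.995 without it (0.924 to 1.07), so counting error alone covered the difference under this scaling. With library totals alone the ratios were 0.882 and 0.879, below these bounds. The shRNA ratio was 1.26 after Pam3Cys4 (1.18 to 1.36) and 1.30 in unstimulated cells (1.22 to 1.39), with an adjusted p of 0.109 for the shared log2 effect of 0.36.

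The balance among the IRAK transcripts differed between stimulated and unstimulated libraries. Per length, Irak3 stood at 4.97 times the level of Irak4 with shRNA and 8.12 times without shRNA after Pam3Cys4, against 0.463 and 0.719 times in unstimulated cells. Irak2 stood at 6.95 and 6.69 times the level of Irak4 after Pam3Cys4, against 1.82 and 1.72 times in unstimulated cells, with and without shRNA in that order. Irak3 over Irak2 was 0.715 with shRNA and 1.21 without shRNA after Pam3Cys4, and 0.254 and 0.418 in unstimulated cells, so that the restraining member exceeded Irak2 per length only in the stimulated library without shRNA. Which of these genes exceeds the other depends on the exon lengths of GENCODE vM21, while the annotation release behind the counts is not given. Irak4 over Irak1, the kinase IRAK4 acts on, stayed between 0.211 and 0.263 in the 4 libraries.

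The windows of Irak2 and Irak3 are shown because both genes rose with Pam3Cys4. Neither holds a match to the 3 motifs, so there are no capitals, and Irak3 is given at the first of its starts in the table.
Irak2, chr6:113638217-113638516, plus strand: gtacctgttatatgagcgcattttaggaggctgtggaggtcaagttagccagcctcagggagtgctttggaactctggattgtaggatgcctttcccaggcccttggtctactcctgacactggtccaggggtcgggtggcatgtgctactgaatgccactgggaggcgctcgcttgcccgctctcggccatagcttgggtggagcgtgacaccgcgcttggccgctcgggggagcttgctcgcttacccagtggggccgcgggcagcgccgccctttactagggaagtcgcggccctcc
Irak3, chr10:120201548-120201847, minus strand: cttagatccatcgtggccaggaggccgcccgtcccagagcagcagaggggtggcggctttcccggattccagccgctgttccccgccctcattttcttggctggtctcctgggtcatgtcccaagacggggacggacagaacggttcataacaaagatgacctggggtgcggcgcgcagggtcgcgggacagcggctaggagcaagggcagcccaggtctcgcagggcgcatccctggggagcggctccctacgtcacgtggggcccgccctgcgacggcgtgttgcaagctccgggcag
No window was used for Cd14, Ly96 or Unc93b1.

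**Figure D3:**
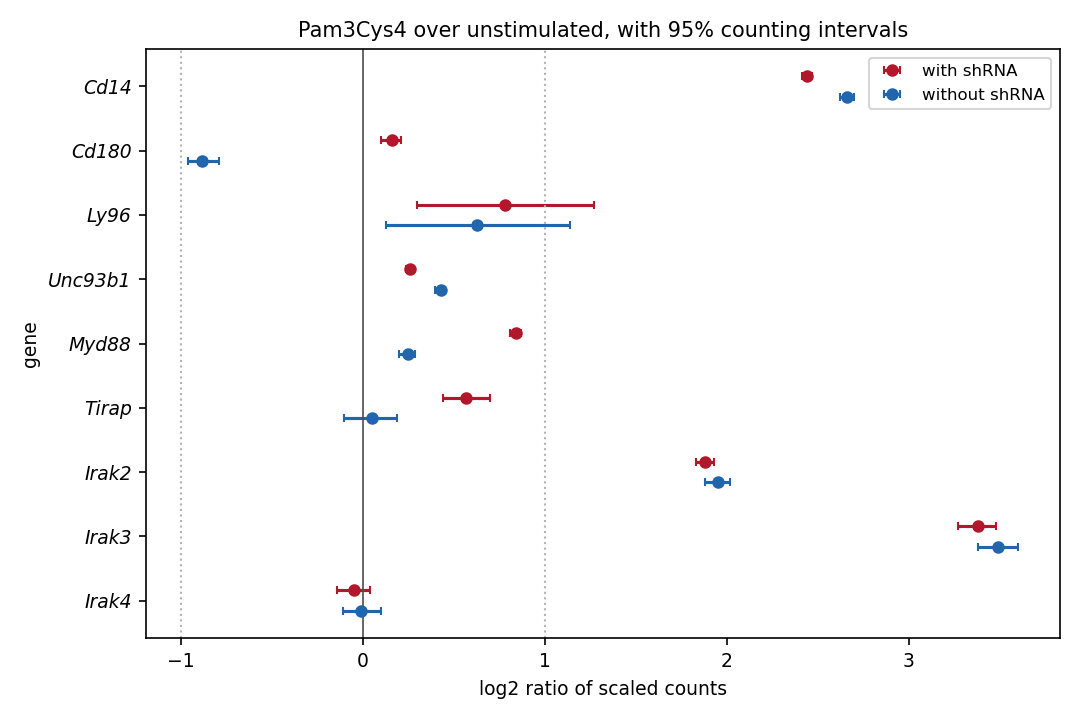
Log2 ratio of scaled counts, Pam3Cys4 over unstimulated, for 9 of the 10 genes (Ly86 is left out because it had 3 and 1 counts with shRNA), with shRNA in red above and without shRNA in blue, bars being 95% counting intervals and dotted lines marking 2-fold. Cd14, Irak2 and Irak3 lie beyond 2-fold in both states, and Cd180 lies on opposite sides of 0 (0.16 with shRNA and -0.88 without it).

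**Figure D4:**
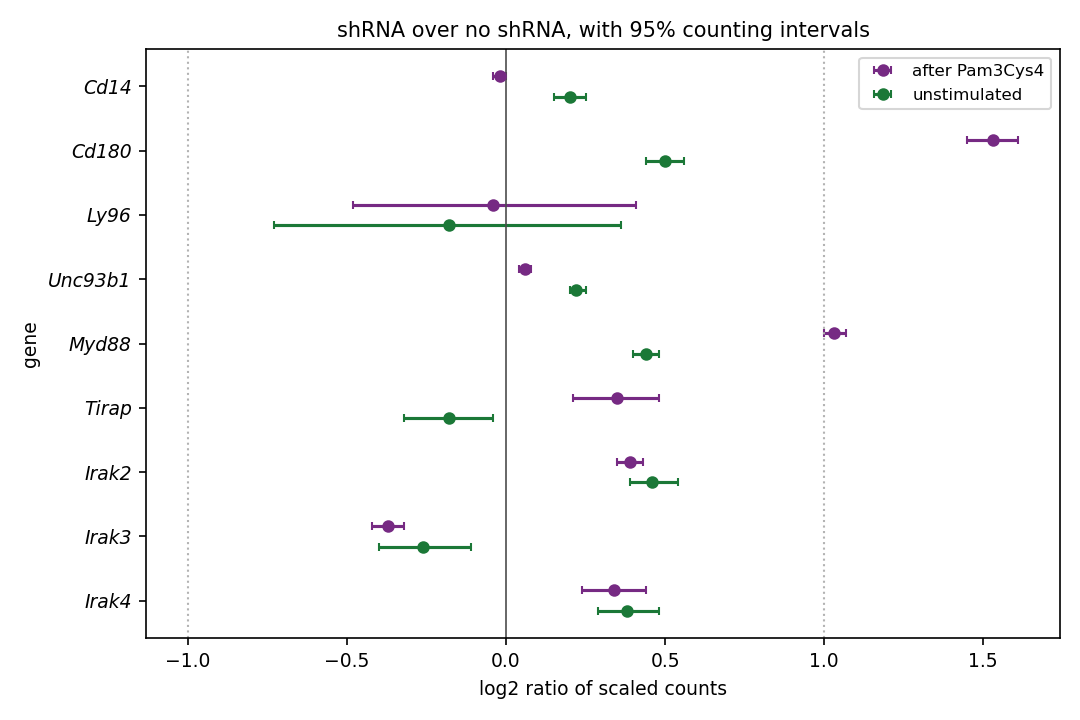
Log2 ratio of scaled counts, shRNA over no shRNA, for 9 of the 10 genes (Ly86, at -9.56 and -12.29, is off the scale and left out), after Pam3Cys4 in purple above and in unstimulated cells in green, with 95% counting intervals and dotted lines at 2-fold. Cd180 (1.53) and Myd88 (1.03) pass 2-fold after Pam3Cys4, and the other members lie within 2-fold in both states.

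Other genes of the pathway were read from lists, and their counts stand against 11.9% of all tested genes rising and 10.9% falling with Pam3Cys4, and 12.2% rising and 8.69% falling with shRNA. Of 18 TLR and interleukin-1 receptor family genes, 13 were tested, of which 2 rose and 0 fell with Pam3Cys4, and 3 rose and 4 fell with shRNA (all genes passing in either direction: 22.8% and 20.9%). Tlr2 was 4.20 times as high after Pam3Cys4 as before with shRNA (4.07 to 4.33) and 2.81 times without it (2.71 to 2.92), while Tlr1, its partner for this ligand, was at 0.0819 of the no shRNA level with shRNA after Pam3Cys4 (0.0726 to 0.0922) and at 0.0644 in unstimulated cells (0.0562 to 0.0734). Among 14 other accessory and trafficking factors, 12 were tested, with 1 rising and 3 falling with Pam3Cys4 and 4 rising and 0 falling with shRNA, beside the same 22.8% and 20.9%. Cd36, a scavenger receptor that assists TLR2, was the one with the largest shRNA ratios, 3.53 after Pam3Cys4 (3.40 to 3.66) and 5.95 in unstimulated cells (5.65 to 6.26).

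Of 21 other adaptors and genes of the IRAK1 and TRAF6 branch, 18 were tested, with 6 rising and 0 falling with Pam3Cys4 (11.9% and 10.9% of all genes) and 1 rising and 1 falling with shRNA (12.2% and 8.69%). Ikbke, which encodes an IKK-related kinase, had Pam3Cys4 ratios of 4.84 with shRNA (4.69 to 5.01) and 6.76 without it (6.41 to 7.13), and Ticam1, the adaptor TRIF, had 2.47 (2.38 to 2.57) and 2.39 (2.29 to 2.50). Of 18 listed regulators of MyD88 signalling, restraints for the most part, 14 were tested. With Pam3Cys4, 7 rose and 1 fell (11.9% and 10.9% of all genes). With shRNA, 4 rose and 1 fell (12.2% and 8.69%). Zc3h12a, which encodes an RNase of inflammatory transcripts, had Pam3Cys4 ratios of 26.1 with shRNA (24.4 to 27.9) and 34.1 without it (31.2 to 37.4), and Tnfaip3, the ubiquitin editor A20, had 11.9 (11.1 to 12.7) and 9.52 (8.83 to 10.3). Peli2, a ubiquitin ligase of IRAK proteins, rose with shRNA, with ratios of 8.31 after Pam3Cys4 (6.76 to 10.3) and 21.4 in unstimulated cells (17.4 to 26.6). The gene of this list that fell with shRNA was Tnip3 (log2 -1.36, adjusted p 0.0121 in the additive test). The median Pam3Cys4 log2 effect was 0.18 for the receptors, -0.04 for the accessory factors and 0.20 for the adaptors. It was 0.74 for the regulators and 2.61 for the interferon-stimulated genes. The median shRNA effect was 0.49, 0.20, 0.13, 0.30 and 4.91 in the same order of lists. All 9 tested interferon-stimulated genes rose with both.

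For members at least 2-fold apart in a comparison, up to 3 genes with the most similar course over the 4 libraries were taken from 9907 others with at least 5 CPM in their highest library. Likeness was measured as the root mean square difference between centred log2 levels over 4 libraries, in log2 units. Before the log, 0.5 was added to each count. The genes given for Cd14 are Osgin2 (0.124) and Rhbdf2 (0.138). Irak3 was closest to Pde4b, a cyclic AMP phosphodiesterase (0.0863), the sialic acid receptor gene Siglece (0.153) and the C-type lectin gene Clec4e (0.174). Irak2 was closest to Cebpb, a transcription factor gene of myeloid cells (0.0733), Stx11 (0.0912) and Fam214b (0.109), whereas Cd180 was closest to Pex26 (0.0581), the DNA replication gene Mcm10 (0.0629) and Amer1 (0.0827). Myd88 was closest to genes read at under 10 CPM in each library, Ywhaq-ps2 (0.0352), Cbr4 (0.0377) and Ginm1 (0.0532). Ly86 was closest to Ccdc85c (0.455), Arap2 (0.512) and Grk3 (0.541), each of which had 0 CPM in both libraries with shRNA. With Ly86 itself at 3 and 1 counts there, its distances depend on the added 0.5. With 4 libraries many genes share a course, and the distances are a description.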

How the data were processed

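Messenger RNA of 4 libraries was read at 50 bp per the labels' protocols. Per the submitters' processing notes, CASAVA 1.8, TopHat and HTSeq were used with build NCBIM37. Other versions, the annotation release and any use of strand were not given in the sources used here. Whole-number read counts per gene were deposited, with no normalization. Lines naming no gene held 32.5 to 34.4% of each table's total and were left out. Among them, reads without a unique alignment made up 27.0 to 29.9% of the total. Whether reads of the members were lost this way was not tested. Of 37681 gene IDs, 32642 matched a symbol. TMM factors from edgeR 4.0.16 (R 4.3.3) scaled the library sizes. Ratios carry exact 95% conditional binomial intervals (SciPy 1.17.1), a count of 0 being replaced by 3. The quotient of stimulation ratios has a delta-method interval and needs 10 counts in each library. The additive edgeR test used genes with at least 5 CPM in 2 libraries, with Benjamini-Hochberg adjustment at 0.05, standard errors being taken from the effect and its F value. Both steps were checked on simulated data. Exon lengths, gene order and overlaps came from GENCODE vM21. Genes on the other strand overlap 4.04 to 11.3% of the exon bases of Cd180, Myd88, Tirap, Irak2, Irak3 and Irak4, whose counts may hold reads of those genes if strand was not used. DESeq2 1.42.0, other scalings and filters were alternatives. Named genes were all members, up to 4 genes per list with large ratios, and the 3 genes of most similar course, of which one is not reported here. Members and lists were chosen with earlier results of these data known.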

Additional observations from a re-analysis of the deposited data

Results flagged for a closer look

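The stimulation ratio of Cd180 went opposite ways in the cells with and without shRNA. Pam3Cys4 over unstimulated was 1.12 with shRNA and 0.545 without it, and both counting intervals excluded 1. With library totals as the only scaling the values were 1.02 and 0.481. The first lies below its TMM interval (1.08 to 1.16), so the rise with shRNA depends on the scaling. The difference was not tested against replicates, since each value compares 1 library with 1 library.

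Tirap had shRNA ratios on opposite sides of 1 in the stimulated and the unstimulated cells. The ratio of shRNA to no shRNA was 1.27 after Pam3Cys4 and 0.883 in unstimulated cells (1.21 and 0.812 with library totals alone), and this difference was not tested either.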

How the results depend on the processing

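Under all alternatives run (library totals alone, DESeq2 size factors, no CPM filter, a 1 CPM filter and a 1.5-fold rule), Cd14, Irak2 and Irak3 were called higher after Pam3Cys4 in both shRNA states and Ly86 lower with shRNA in both stimulation states. Cd180 was called higher with shRNA after Pam3Cys4 under each of them, and Myd88 under each except library totals alone. Library totals moved the median log2 ratio of all genes to -0.185 (Pam3Cys4 without shRNA, -0.001 with TMM), -0.118 (Pam3Cys4 with shRNA) and -0.098 (shRNA, unstimulated). In the first of these, 5 of 9 members were called, adding Ly86 and Cd180 as lower, where 541 of 9624 genes were higher and 898 lower. In the additive test library totals gave 965 genes rising and 2061 falling with Pam3Cys4, against 1136 and 1044, and 1043 and 1275 with shRNA, against 1169 and 831. Without a CPM filter the genes called were 2181 and 2574 (Pam3Cys4 with and without shRNA), 3059 and 2800 (shRNA after Pam3Cys4 and unstimulated) and 660 for the quotient of stimulation ratios. The additive test then called 3870 of 19624 genes and 5 of 10 members for Pam3Cys4 (adding Ly86 and Myd88). For shRNA it called 4044 of 19624 genes and 4 of 10 members (adding Cd180 and Irak2). A 1 CPM filter gave 1725 genes for shRNA in unstimulated cells and 568 for the quotient. The 1.5-fold rule gave 2354 of 9601 genes for Pam3Cys4 with shRNA and 2948 of 9555 without it. It gave 2821 of 9702 for shRNA after Pam3Cys4, 2262 of 9651 for shRNA unstimulated, and 1274 of 9857 for the quotient. Of the members, 5 of 9 were then called for Pam3Cys4 without shRNA and 2 of 8 for the quotient (Cd180 and Myd88). Looser filters and rules admit more genes by construction, and the cause of the other shifts was not tested. No paired analysis was possible because each group holds 1 library and so no replicate numbers to pair, while the additive model already compares each factor within the states of the other. Low counts limit Ly96 in all comparisons and Ly86 with shRNA.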

Other observations

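Sigirr, which encodes a restraint of the receptor family, lay under the 5 CPM filter. It had 1 count with shRNA and 34 without shRNA after Pam3Cys4, and 1 count with shRNA and 85 without shRNA in unstimulated cells. Sigirr, Mertk and Axl were chosen after their values were seen. Mertk and Axl, receptors for dying cells that restrain TLR responses, were higher with shRNA. Mertk had 440 counts with shRNA and 55 without shRNA after Pam3Cys4, and 2585 with shRNA and 256 without shRNA in unstimulated cells. Axl had 406 and 22 counts after Pam3Cys4, and 257 and 23 in unstimulated cells, in the same order. In unstimulated cells Axl lay under the 5 CPM filter (3.86 and 0.441 CPM). Tyro3, from the same list, had 0 counts with shRNA and 4 without shRNA after Pam3Cys4, and 0 and 3 in unstimulated cells.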
